A study of Homo sapiens with 6 samples.

Results

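The T and NK lineage genes described here are 10 genes that T cells and natural killer (NK) cells use to sense other cells: CD247, CD3D, CD3E, CD3G, LCK, ZAP70, CD2, CD7, TIGIT and CD96. They were measured in KG1a, a line of immature cells from a human acute myeloid leukaemia that carry the surface antigen CD34. All probes whose single gene symbol is one of these names were taken, which gave 20 of 47322 probes and 10 of 20046 named genes. Of the 6 Illumina bead arrays, 3 were of KG1a cells exposed for 24 h to 2 µM of 7l, an agent with no name here beyond this code, and 3 were of control KG1a cells. All cells were of this 1 line, grown in medium with fetal bovine serum. The labels give neither a vehicle or culture time for the control cells nor the source of the replicates, so the p-values below cover differences among these arrays and may reflect technical spread. The members were chosen with earlier results of these arrays known, and CD247 and TIGIT were chosen by their log2 change between 7l and control, which had placed them among the lower genes, so their differences are given as a description with no test. Of the other 8, 6 were tested in 1 fit over all genes, and CD3E and CD3G were too dim to enter it.

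In T cells the receptor that recognises antigen does not signal by itself. It is joined to the CD3 chains and to the zeta chain, whose tails are phosphorylated by the kinase LCK and then bind the kinase ZAP70. CD2 is an adhesion receptor, CD7 is among the earliest surface antigens of T and NK precursors, and TIGIT and CD96 are receptors of T and NK cells that bind the poliovirus receptor on other cells. CD7 and CD96 are also known from the surface of acute myeloid leukaemia blasts.

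KG1a cells gave strong signal for 3 of the 10 genes, namely CD3D, CD7 and CD96, and dim signal, at or within a few-fold of background, for CD3E, CD3G, CD2, CD247, TIGIT and LCK. ZAP70 was above background on all 6 arrays on 1 of its probes. With 7l the CD3D signal fell 1.58-fold, whereas CD7 measured 0.971 of its control level with overlapping groups. Both CD96 probes were about equally lower with 7l without passing the test. The intensities below are on a linear scale as deposited. A probe was taken as above background when it exceeded an intensity of 5.49 (log2 2.46), a level that 95% of 564 probes for genes blood cells hardly use (odorant and taste receptors, keratin-associated proteins) did not exceed on average. By this level 8 of the 20 probes, of 5 genes (CD3D, LCK, ZAP70, CD7 and CD96), lay above background on all 6 arrays, 5 lay at or under it on all 6, and 7 were mixed. Closest to the level among probes above it on all arrays was the first LCK probe, at 6.85 on its dimmest array, and closest among probes under it on all arrays was the second LCK probe, at 5.40 on its brightest array. Probes of different genes bind with different strength, so no order of levels is read between genes.

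**Figure D1:**
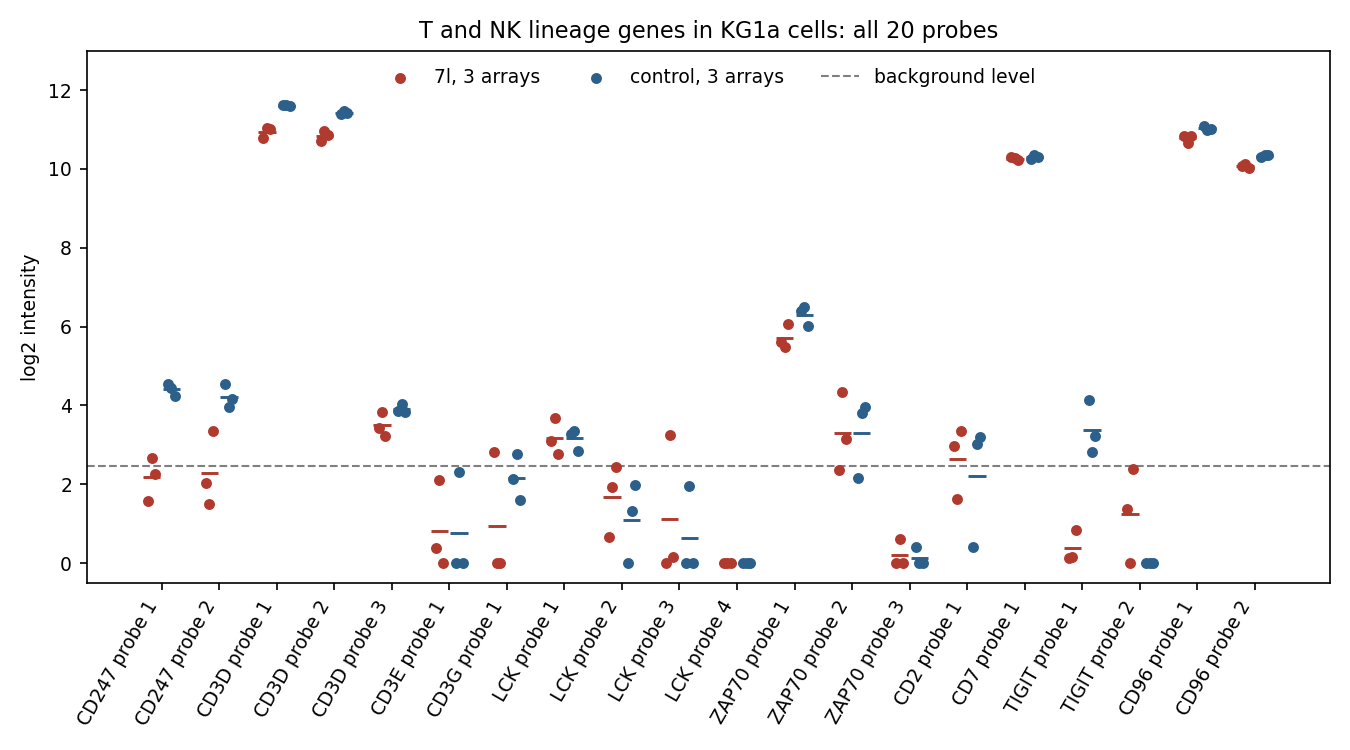
Log2 intensity (vertical axis) of all 20 probes of the 10 genes, with 3 arrays of cells given 7l in red to the left of 3 control arrays in blue, a bar at each group's mean, and the background level of 2.46 as a dashed line. Both brighter probes of CD3D and the probes of CD7 and CD96 stand between log2 10 and 12, and most others lie around the dashed line.

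Among the 4 signalling chains of the receptor complex, CD3D was the 1 with a level far above background. CD3D encodes the delta chain of CD3. Its first probe read 1759, 2098 and 2079 with 7l, against 3141, 3141 and 3077 in control cells. All 3 arrays with 7l lay under all 3 control arrays, and the gap between the groups was wider than the range within either. On the log2 scale CD3D averaged 10.95 ± 0.14 with 7l and 11.61 ± 0.02 in control cells (SD, n = 3 each), a difference of -0.66 ± 0.09 (SE; limma, adjusted p = 0.0396 over 12334 genes), with a 95% interval of -0.90 to -0.42. The second CD3D probe read 1686, 1993 and 1848 with 7l, against 2670, 2851 and 2726 in control cells, and averaged 0.669 of its control level, with groups that did not overlap. The third was dim, at 10.8, 14.2 and 9.40 with 7l against 14.5, 16.5 and 14.2 in control cells, and its groups overlapped at 14.2. The call of CD3D passed narrowly: the adjusted p was 0.0752 with the probes of each gene averaged, 0.0625 in a fit over all single probes, and between 0.0916 and 0.144 without any 1 array, while the log2 difference stayed between -0.71 and -0.55 in these fits. With the replicate number as a block it was 0.197. CD3D did pass with 16 added to each intensity (limma adjusted p = 0.00947), among genes above background in at least 1 group (0.0224) and with a trended and robust prior (5.83e-10). That prior called 6.59% of all genes tested lower. In cells measured in bulk, fewer cells that carry a transcript and less of it in each cell cannot be told apart.

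**Figure D2:**
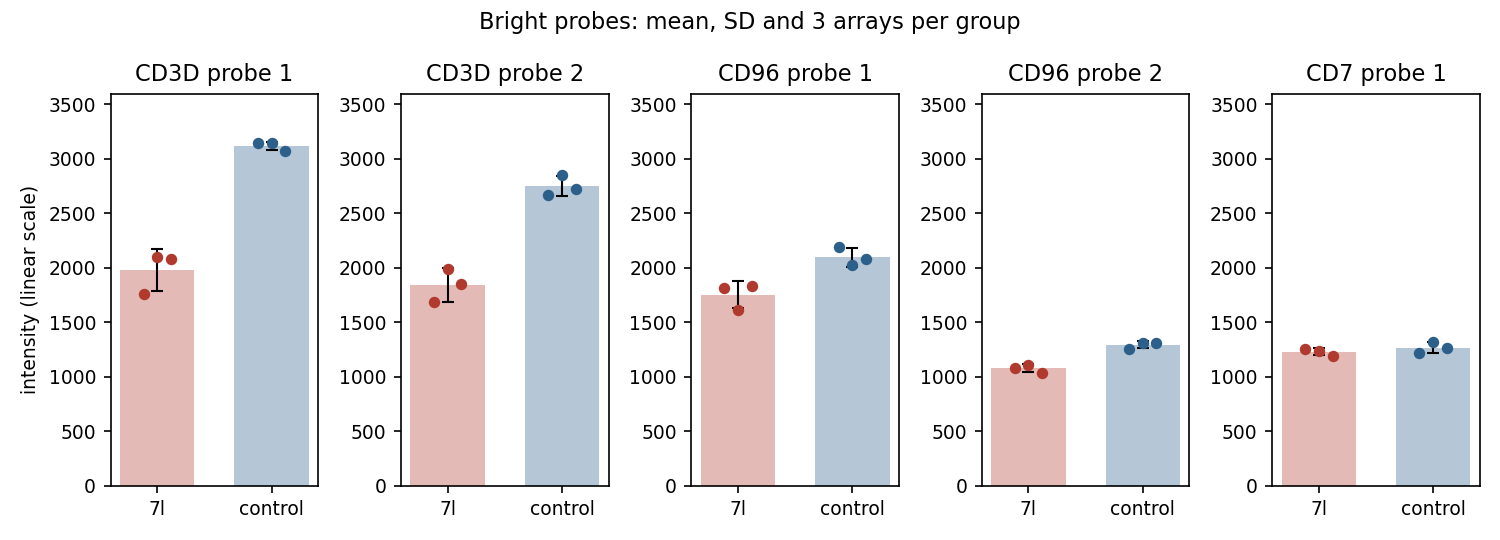
Linear intensity of the 5 brightest probes of the members (CD3D, CD96 and CD7), with 7l to the left of control, bars at the mean of 3 arrays starting at 0, error bars of 1 SD and a point for each array. Both CD3D probes and both CD96 probes have every array with 7l under every control array, and the CD7 groups overlap.

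CD3E and CD3G encode the epsilon chain, which pairs with delta, and the gamma chain of the same complex. The single CD3E probe read 1.30, 4.30 and 1 with 7l, against 1, 4.95 and 1 in control cells, so all 6 arrays were at or under background. The single CD3G probe read 7.09, 1 and 1 with 7l, against 4.38, 6.77 and 3.03 in control cells, above background on 1 array of each group. Both genes lay under the intensity filter of the fit and were not tested, and no fold is given between groups at background. In the RefSeq annotation the 3 genes follow each other on chromosome 11 in the order CD3E, CD3D, CD3G with no other protein-coding gene between them. Of the genes that flank them, UBE4A differed by 0.18 ± 0.09 and MPZL2 by 0.09 ± 0.24 on the log2 scale (SE; limma adjusted p = 0.336 and 0.878), and neither passed. CD3D was thus the 1 gene of these neighbours that passed the test.

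CD247 encodes the zeta chain, which carries most of the phosphorylation motifs of the complex. Its first probe read 2.99, 6.38 and 4.82 with 7l, against 23.4, 21.8 and 18.9 in control cells. Its second probe read 4.06, 2.83 and 10.2 with 7l, against 23.2, 15.7 and 18.1 in control cells. On both probes every control array was above background and 1 of the 3 arrays with 7l was, and the groups did not overlap. The log2 means of the first probe were 2.17 ± 0.55 with 7l and 4.41 ± 0.15 in control cells (SD, n = 3 each), a difference of -2.24, which was -1.88 with values raised to the background level and -0.85 with 16 added to each intensity. The second probe differed by -1.94 on the log2 scale, or -1.47 with values raised to that level. The zeta chain signal was thus low in control cells and near background with 7l, and its fold depends on how dim values are treated.

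The 250 bases before the RefSeq start are shown for CD3D, which was called lower with 7l, and for CD247, which was chosen by this contrast (RefSeq, GRCh38.p14, each on the minus strand and written 5′ to 3′). CD3D lies at chr11:118342706-118342955 and CD247 at chr1:167518530-167518779. Capitals mark matches, on either strand, to the core letters of 4 factor families of blood cells: GGAAG (ETS), TGTGGT (RUNX), GATAA (GATA) and CAGNTG (an E-box form), where neighbouring matches can touch.
CD3D: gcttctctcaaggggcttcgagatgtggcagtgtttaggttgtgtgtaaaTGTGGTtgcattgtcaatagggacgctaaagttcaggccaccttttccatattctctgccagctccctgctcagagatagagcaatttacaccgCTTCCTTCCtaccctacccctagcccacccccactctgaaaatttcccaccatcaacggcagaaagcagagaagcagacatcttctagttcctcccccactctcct
CD247: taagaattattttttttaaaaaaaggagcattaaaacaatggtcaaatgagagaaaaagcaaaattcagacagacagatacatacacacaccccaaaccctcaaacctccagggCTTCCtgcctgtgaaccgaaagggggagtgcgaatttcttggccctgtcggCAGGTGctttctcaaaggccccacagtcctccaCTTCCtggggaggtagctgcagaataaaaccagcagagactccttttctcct
The CD3D window holds 2 ETS matches, which overlap by 1 base, and 1 RUNX match. The CD247 window holds 2 ETS matches and 1 E-box match. Of 35116 such windows in the RefSeq table, 65.1% hold the ETS letters, 11.0% the RUNX letters, 20.4% the GATA letters and 42.5% the E-box letters, so these matches describe the letters only.

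Neither kinase that acts on these chains passed the test. LCK, a Src family kinase, was read by 4 probes. The first LCK probe read 8.53, 12.8 and 6.85 with 7l, against 9.77, 10.3 and 7.24 in control cells, with overlapping groups and a log2 difference of 0.01 (95% interval -0.69 to 0.71; limma adjusted p = 0.989). Its sign turned with array weights and without 7l replicate 2 or control replicate 3. Of the other LCK probes, 1 sat at the lowest value of 1 on every array, 1 was under background on all 6, and 1 rose above it on a single array with 7l (9.52).

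ZAP70 encodes the kinase that binds the phosphorylated chains. Its first probe read 49.1, 44.8 and 66.6 with 7l, against 84.4, 90.5 and 64.6 in control cells. The groups overlapped through 1 array of each, and the log2 difference of -0.58 ± 0.21 (SE) did not pass (limma adjusted p = 0.208), although it did with a trended and robust prior (adjusted p = 0.00761). The second ZAP70 probe, assigned to another transcript, ranged from 5.17 to 20.4 with 7l and from 4.43 to 15.5 in control cells, and the third lay under background on all arrays. With the probes of the gene averaged the difference was -0.18.

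Of the surface antigens CD7 and CD2, CD7 was far above background and CD2 near it. CD7 read 1256, 1241 and 1194 with 7l, against 1218, 1318 and 1265 in control cells. The groups overlapped, and the log2 difference was -0.04 with a 95% interval of -0.22 to 0.13 (limma adjusted p = 0.779), an interval that does not reach the CD3D difference. Within each array the log2 ratio of CD3D to CD7 averaged 0.68 ± 0.17 with 7l and 1.30 ± 0.06 in control cells (SD, n = 3 each). That difference between the genes was not tested. CD2 read 7.82, 3.09 and 10.2 with 7l, against 1.34, 8.14 and 9.25 in control cells. With 2 arrays of each group above background, its log2 difference of 0.43 had a 95% interval of -1.88 to 2.74 (adjusted p = 0.835), and without control replicate 1 it was -0.47.

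CD96, also called TACTILE, is an adhesion receptor for the poliovirus receptor, and its probes were far above background. Its first probe read 1815, 1611 and 1835 with 7l, against 2194, 2023 and 2079 in control cells. Its second probe read 1078, 1111 and 1039 with 7l, against 1255, 1314 and 1306 in control cells. On both probes every array with 7l lay under every control array, and the differences of -0.26 and -0.26 on the log2 scale were alike. In the fit over genes the first probe had a difference of -0.26 ± 0.08 (SE; 95% interval -0.47 to -0.05) and did not pass (limma adjusted p = 0.182), but did with a trended and robust prior (adjusted p = 0.00574). The CD96 level was 1.20-fold lower, and within each array the log2 ratio of CD3D to CD96 averaged 0.17 ± 0.21 with 7l and 0.57 ± 0.06 in control cells (SD, n = 3 each), a difference between the genes that was not tested.

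TIGIT encodes an inhibitory receptor that shares ligands with CD96. Its first probe read 1.10, 1.12 and 1.80 with 7l, against 17.6, 7.02 and 9.31 in control cells. No array with 7l was above background and all control arrays were. With values raised to background the signal measured 1.91-fold lower with 7l, and no larger fold is read. The second TIGIT probe read 2.60, 1 and 5.20 with 7l, against 1 on all 3 control arrays, all of it under background. The lower TIGIT reading therefore rests on 1 probe, whose control values were themselves dim.

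The same 250 bases of CD96 and TIGIT, both on the plus strand of chromosome 3, are shown because these receptors share ligands (RefSeq, GRCh38.p14). CD96 lies at chr3:111541947-111542196 and TIGIT at chr3:114293778-114294027, and capitals mark the same letters.
CD96: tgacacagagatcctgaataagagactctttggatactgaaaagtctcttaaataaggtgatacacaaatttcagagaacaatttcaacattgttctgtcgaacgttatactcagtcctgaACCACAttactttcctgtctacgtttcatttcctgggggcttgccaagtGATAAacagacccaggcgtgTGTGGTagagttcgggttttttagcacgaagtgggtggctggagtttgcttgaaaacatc
TIGIT: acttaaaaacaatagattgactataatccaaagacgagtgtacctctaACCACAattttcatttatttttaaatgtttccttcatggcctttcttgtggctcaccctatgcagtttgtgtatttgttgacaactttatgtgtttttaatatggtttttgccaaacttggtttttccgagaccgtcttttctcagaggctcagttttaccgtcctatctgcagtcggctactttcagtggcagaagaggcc
The CD96 window holds 2 RUNX matches and 1 GATA match, and the TIGIT window 1 RUNX match. Neither holds the ETS or E-box letters. Of the members, 7 were found in the table of windows and CD3E, CD3G and CD7 were not.

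**Figure D3:**
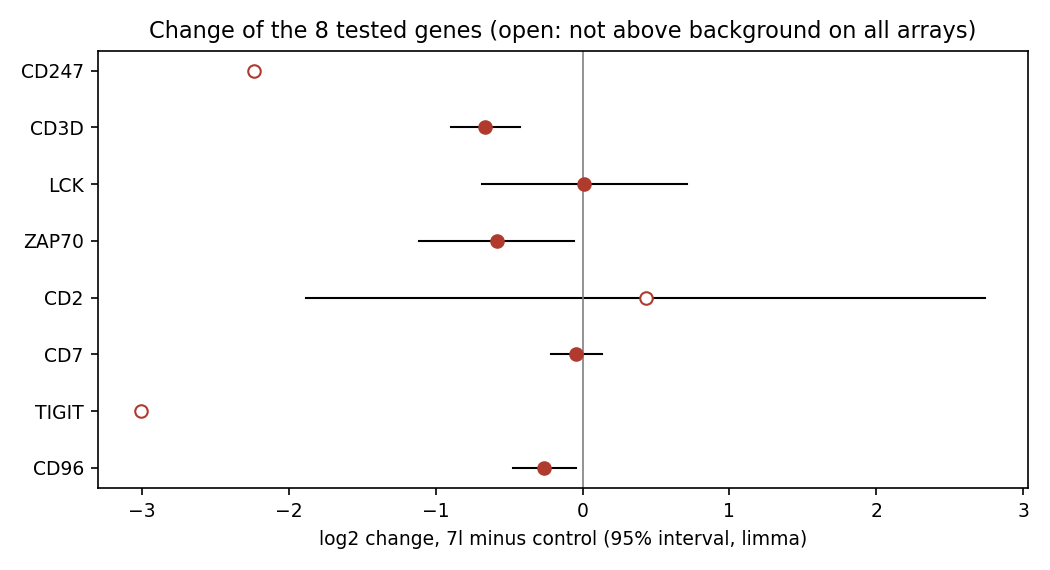
Log2 change, 7l minus control (horizontal axis), of the 8 tested members, with the 95% interval of the limma fit for the 6 given with a test and a point alone for CD247 and TIGIT. Filled points were above background on all 6 arrays. The interval of CD3D runs from -0.90 to -0.42, that of CD7 spans 0, and that of CD2 is the widest.

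Of the 10 genes 8 passed the intensity filter, which a gene could pass through 1 group alone. Of the 6 tested members other than CD247 and TIGIT 1 was called lower, CD3D, beside 1.16% of the 12334 genes called lower and 1.22% called higher. CD247 and TIGIT also passed the threshold, but they were taken up because of this contrast, so nothing is read from that. No member was called higher by limma. Of those 6, 0 had an unadjusted p under 0.05 in the higher direction, beside 10.8% of all genes tested, and 3 had one in the lower direction (CD3D, ZAP70 and CD96), beside 9.72%. Of the 16 probes of members other than CD247 and TIGIT, 4 had all arrays with 7l under all control arrays (2 of CD3D and both of CD96), beside 7.49% of all probes. Of the 6 tested members 2 had all arrays with 7l under all control arrays (CD3D and CD96), beside 13.8% of all genes tested. With a trended and robust prior, which called 6.59% of all genes tested lower, CD3D, ZAP70 and CD96 of the 6 were called lower.

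Around the members, 8 lists of T and NK genes held 148 further genes on the array, of which 99 were tested. Of these 99, 2 rose, 3 fell and 94 did not pass, and their median log2 change was 0.01, beside 150 higher and 143 lower of 12334 genes and a median of 0.01 over all genes tested. By list, members included, the median log2 change was -0.99 for the receptor and CD3 complex (3 genes tested, CD247 among them), or -0.66 with values raised to background. It was -0.09 for TIGIT, CD96, CD226 and ligands (6 genes tested, TIGIT among them). CD247 and TIGIT were chosen by this contrast, so the medians of their lists are not read as a result. The other medians were 0.04 for proximal signalling, 0.09 for CD2 and SLAM genes, -0.13 for progenitor genes (-0.05 with values raised to background) and 0.13 for transcription factors. Those of NK and cytotoxic genes and of coreceptors and checkpoints were -0.23 and -0.47.

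In the list of the T cell receptor and CD3 complex 3 of 6 genes on the array were tested. CD3D was called, CD247 is described above without a test, and TRAT1, an adaptor of the receptor, measured -0.99 ± 0.47, or -0.49 with values raised to background, and did not pass. In the list of proximal receptor signalling 26 of 35 genes were tested and RASGRP1, which loads RAS with GTP downstream of the receptor, fell by 0.69 ± 0.10 on the log2 scale (SE; limma adjusted p = 0.0390). RASGRP1 lost this call in the fit over all single probes (limma adjusted p = 0.0628) and without any 1 array (0.0974 to 0.136), and measured -0.46 with an offset of 16. The other 25 did not pass. LCP2, the adaptor SLP-76 that ZAP70 phosphorylates, measured -0.39 ± 0.09, the kinase gene TXK -0.50 ± 0.15 and BCL10, of the NF-kappaB branch, 0.62 ± 0.16, with adjusted p of 0.0952, 0.165 and 0.116. The BCL10 difference was 0.29 with its probes averaged and 0.33 with an offset of 16. RASGRP1 was dim, at log2 4.65 ± 0.07 with 7l and 5.34 ± 0.14 in control cells (SD, n = 3 each).

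In the list of TIGIT, CD96, CD226 and their ligands 6 of 11 genes were tested. TIGIT passed the filter through its control level and is described above without a test, and the other 5 did not pass. The ligand genes NECTIN1 and NECTIN2 measured 0.82 ± 0.16 and 0.26 ± 0.08 on the log2 scale (SE; limma adjusted p = 0.0729 and 0.182), with every array with 7l above every control array, and neither passed. With the probes of each gene averaged NECTIN1 measured 0.60 and NECTIN2 0.12 (limma adjusted p = 0.328 and 0.699). The list of CD2 and SLAM family genes held no called gene among 10 tested by limma, and 2 had an unadjusted p under 0.05, beside 20.5% of all genes tested. The SLAM family receptor gene CD244 measured 0.50 ± 0.10 (adjusted p = 0.0740), SLAMF6 0.26 ± 0.10 (-0.23 with its probes averaged) and CD48, a ligand of CD244, -1.58 ± 0.70, or -1.06 with values raised to background.

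Among early lymphoid and thymic progenitor genes 13 of 22 were tested. IGLL1, a surrogate light chain gene of B cell precursors rather than a T cell gene, fell by 1.11 ± 0.15 on the log2 scale (SE; limma adjusted p = 0.0380). It lost this call with its probes averaged (adjusted p = 0.137) and in the fit over all single probes (0.0752). The other 12 did not pass. Of them CD34, a surface antigen of immature blood cells, measured -0.23 ± 0.08 (adjusted p = 0.185), or -0.05 with its probes averaged, LMO2 0.29 ± 0.12 and CD1B 1.73 ± 0.78, or 0.74 with values raised to background. Among T and NK transcription factors 24 of 29 were tested, ID2, which restrains E proteins and is required for NK cells in mice, rose by 0.74 ± 0.08 (limma adjusted p = 0.0254) and 23 did not pass. GATA3, which T cell development requires in mice, measured -0.88 ± 0.14 (adjusted p = 0.0543), EOMES -0.96 ± 0.23 and IKZF1 -0.45 ± 0.09, each with all arrays with 7l under all control arrays and none past the threshold. Each did pass with a trended and robust prior (limma adjusted p = 0.00106, 0.00996 and 0.000827), which called 6.59% of all genes tested lower. That prior called 889 genes higher and 813 lower. List genes that passed with it in the higher direction included NECTIN1, NECTIN2, CD244, LMO2 and NKG7 (limma adjusted p = 0.00104, 0.0458, 0.00181, 0.0125 and 0.000114). LCP2 and CD34 passed with it in the lower direction (0.0478 and 0.0101).

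In the NK and cytotoxic list 17 of 28 genes were tested and SRGN, the granule proteoglycan that many blood cells make, rose by 0.67 ± 0.08 on the log2 scale (SE; limma adjusted p = 0.0286), while 16 did not pass. The granule genes NKG7 and PRF1 measured 0.47 ± 0.11 and -0.44 ± 0.15. KLRK1, at or under background on every array with 7l, measured 1.59-fold lower with values raised to background. Its log2 difference had a 95% interval of -3.36 to 0.14, which spans no change, and did not pass (limma adjusted p = 0.275). In the list of coreceptors, costimulation and checkpoints 9 of 18 genes were tested. TNFRSF9, the costimulatory receptor 4-1BB, fell by 1.08 ± 0.07 (limma adjusted p = 0.0121) at a level of log2 2.54 ± 0.07 with 7l and 3.62 ± 0.04 in control cells (SD, n = 3 each), close to background, and lost its call with a trended and robust prior (adjusted p = 0.226). ICOS measured -0.54 ± 0.17, TNFRSF4 -0.46 ± 0.11 and CD69, an early activation antigen, 0.40 ± 0.07, and none passed.

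**Figure D4:**
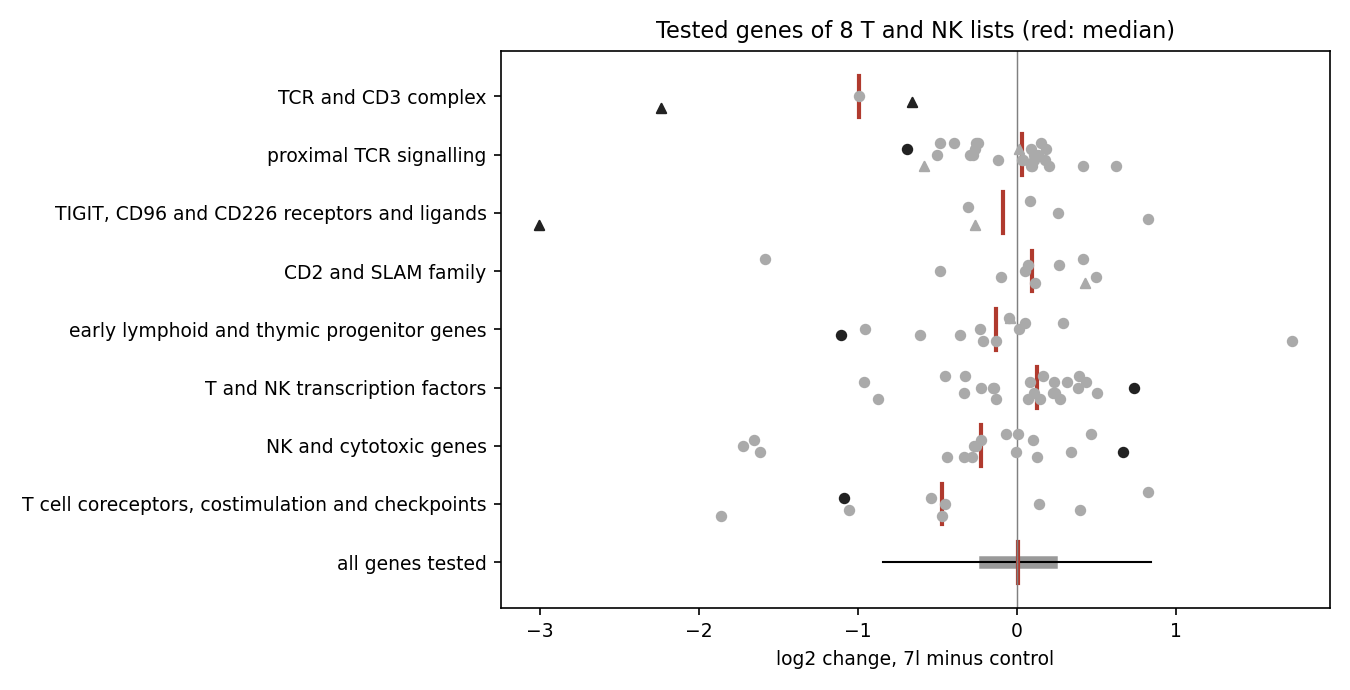
Log2 change, 7l minus control (horizontal axis), of each tested gene in the 8 T and NK lists, with triangles for members, black for genes past an adjusted p of 0.05, grey for the others and a red bar at each list's median. CD247 and TIGIT were chosen by this contrast, so their black triangles and the medians of their lists, which include them, are not read as a result. The lowest row shows all 12334 tested genes from the 5th to the 95th percentile (-0.84 to 0.85) with a thick bar for the middle quartiles, and most listed genes lie inside that range.

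The genes whose log2 values over the 6 arrays followed CD247 most closely were GIMAP8 (Pearson r = 0.997), RADIL (0.997), PGK2 (0.995), VAMP1 (0.993) and BTN3A3 (0.992), leaving out the members. CD3D, with r = 0.995, stood at rank 4 of all genes tested, TIGIT had 0.935, ZAP70 and CD96 0.774 each, CD7 0.382, LCK 0.137 and CD2 -0.33. With 3 arrays a group these values mostly restate which genes differ between the groups and share the same arrays, so they are a description.

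Marker levels of the line and of other cell types were as follows. CD34 read 2264 to 2573 with 7l and 2778 to 2855 in control cells. Of 7 T cell markers on the array CD3D alone was above background on all 6 arrays, CD3E and CD5 were under it on all 6, and the summed intensity of 1786 to 2119 with 7l and 3111 to 3197 in control cells was nearly all CD3D. Of 7 NK markers NCAM1, KLRF1, NKG7 and PRF1 were above background and NCR1 was at the lowest value, with sums of 490 to 512 with 7l and 392 to 457 in control cells. Most of that sum was NKG7, at 355 to 370 with 7l and 226 to 288 in control cells, whereas NCAM1 (67.0 to 74.2 with 7l and 81.0 to 91.9 in control cells) and PRF1 (32.2 to 42.3 with 7l and 43.5 to 57.4 in control cells) were lower without overlap. Of 6 B cell markers 2 were above background and PAX5 was at the lowest value (sums 121 to 145 with 7l and 175 to 211 in control cells). Most of the B cell sum was CD79B, at 98.0 to 102.5 with 7l and 135 to 160 in control cells. BLNK, near background, was higher (5.46 to 8.85 with 7l and 1 to 4.06 in control cells). Of 12 granulocyte and monocyte markers 2 were above background (192 to 230 with 7l and 214 to 235 in control cells), and of 8 erythroid and megakaryocyte markers 2 were (331 to 346 with 7l and 458 to 497 in control cells). Most of the latter sum was ITGA2B, at 289 to 301 with 7l and 408 to 461 in control cells, whereas PPBP was not lower (14.0 to 22.0 with 7l and 11.0 to 14.3 in control cells). Of 9 stem and progenitor markers 5 were above background (3076 to 3482 with 7l and 3593 to 3711 in control cells), a sum that was mostly CD34, while ANPEP (377 to 411 with 7l and 311 to 368 in control cells) and GATA2 (241 to 259 with 7l and 230 to 250 in control cells) were not lower. Of the tested genes in these last 4 lists ITGA2B, a platelet integrin gene, fell by 0.53 ± 0.08 on the log2 scale (SE; limma adjusted p = 0.0424). CD79B measured -0.58 ± 0.09 (1.00 with its probes averaged), BLNK 1.54 ± 0.57, or 0.26 with values raised to background, and ANPEP 0.23 ± 0.09, and none of them passed. The list medians were -0.58 for B cell, 0.15 for granulocyte and monocyte, -0.33 for erythroid and megakaryocyte (-0.09 with values raised to background) and 0.07 for stem and progenitor markers. The sums of the T cell, B cell, erythroid and megakaryocyte, and stem and progenitor markers were lower with 7l without overlap, those of the NK markers were higher, and their part in the results above was not tested. Each of these sums was mostly 1 gene (CD3D, CD79B, ITGA2B, CD34 and NKG7), so no change of a cell type is read from them. The name T and NK lineage genes thus describes what these genes are known for. Among the T cell markers CD3E, read by 1 probe, and CD5 gave no signal above background in KG1a, whereas CD3D was far above it.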

How the data were processed

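The authors deposited probe intensity on a linear scale for 6 Illumina arrays, with no detection p-values used here. How that table was corrected and normalized is not stated in the labels. After sorting, the 6 arrays hold the same value at 97.8% of ranks (tolerance 0.0001 of the value), the pattern that quantile normalization gives, so a shift of all transcripts together would not be visible. Intensities run down to a floor of 1, where 32.7% to 34.2% of the probes of an array sit. Per the labels' protocols, RNA was extracted with Trizol, treated with DNase and labelled as biotinylated cRNA.

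Groups and replicate numbers came from the sample titles (the description field gives 1 number per group). Probes were named through the platform table, in which 30113 of 47322 probes carry 1 symbol, 8 several and 17201 none. Gene numbers of 30074 of them were found in RefSeq, and 0 symbols changed. Values under 1 would be raised to 1 before taking log2. The brightest probe stood for its gene (mean over 6 arrays) and was kept if it exceeded log2 1.76, the median of all probes, which left 12334 genes. limma 3.58.1 in R 4.3.3 (lmFit, eBayes, two-sided, 4 residual and 1.24 prior degrees of freedom) was fitted with group as the single term, with Benjamini-Hochberg adjustment and calls at an adjusted p under 0.05. The gene fit was tested on simulated data. Figures used Python 3.11.15, pandas 2.3.3 and matplotlib 3.10.9.

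The members and gene lists were chosen with earlier results of these data known. The rule for other genes named was all called genes of each list, further genes whose groups did not overlap up to 4 a list, in order of size, and the 5 genes most correlated with CD247. Same-numbered arrays of the groups did not deviate together (r of -0.02, -0.00 and 0.00 across genes), so the numbers were not taken as pairs. Alternatives were other scalings, filters, probe rules, an offset of 16, priors, array weights, the replicate number as a block and each array left out. With 3 arrays a group, the number of arrays limits the precision.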

Additional observations from a re-analysis of the deposited data

How the results depend on the processing

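Member calls depended on the fit. CD3D, called lower in the fit described above, was also called among genes above background in at least 1 group, with an offset of 16, with array weights and with a trended and robust prior. CD247 passed in the same fits, and TIGIT did so except with that prior. Both were chosen by this contrast, so nothing is read from their calls. Both other scalings hardly alter arrays that already share 1 distribution, so their equal calls say nothing on stability. Of the members 1 was called without a filter on dim genes (CD3D), 1 with all probes of a gene averaged (CD247) and 0 in a fit over all single probes. In these fits 5, 3 and 5 members had an unadjusted p under 0.05 in limma, beside 3131 of 20046, 2170 of 11456 and 3077 of 20046 genes. Without any 1 array 0 members were called (3 to 5 at an unadjusted p under 0.05 in limma, beside 1986 to 2207 of 12334 genes). The member counts at an unadjusted p in this paragraph take in CD247, and TIGIT where tested, so nothing is read from them. Over all genes the calls, 150 higher and 143 lower, became 232 higher and 205 lower without a filter, 336 higher and 294 lower among genes above background in at least 1 group, 385 and 339 with an offset of 16, and 889 and 813 with a trended and robust prior. Without any 1 array 6 to 15 were higher and 0 to 18 lower. Of the further T and NK list genes, 2 higher and 3 lower, there were 5 higher without a filter, 4 higher in the fit over single probes, 7 higher and 5 lower both among genes above background in at least 1 group and with an offset of 16, 13 and 16 with the trended and robust prior, and 0 higher and 0 to 1 lower without any 1 array. With the replicate number as a block, 0 genes, 0 members and 0 list genes were called in either direction, whereas 2107 genes and 4 members had an unadjusted p under 0.05, and the arrays share only a number.

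Some differences turned sign. LCK measured -0.064 with array weights and between -0.23 and 0.22 without single arrays (-0.14 without control replicate 3), CD2 between -0.47 and 0.94 without single arrays. With probes averaged SLAMF6 measured -0.23 and CD79B, a B cell marker, 1.00. The log2 changes of CD247 and TIGIT shrank to -0.85 and -0.64 with an offset of 16. At the 90th and 99th percentile of the unexpressed probes 9 and 6 member probes were above background, against 8. The causes were not tested.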
